A study of Mus musculus with 12 samples.

Results

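Primary mouse embryonic fibroblasts that lack both cryptochromes were compared with control fibroblasts while both were exposed to dexamethasone, a synthetic agonist of the glucocorticoid receptor. The comparison used the 6 arrays of dexamethasone-treated cells among the 12 arrays of the series. A probe entered it where its signal was above background (detection p under 0.01) on at least 3 of these 6 arrays, which kept 11275 of 25697 probes. Of these, 10641 carried a gene symbol, and they stood for 7968 of the 16593 genes on the array, each read from its brightest probe. Just inside the rule, 411 probes were above background on exactly 3 arrays, with a median log2 level of 6.26, and just outside it 460 were so on 2 arrays, with a median of 6.04. On all 6 arrays 10122 probes were above background, at a median of 9.59.

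All cells were primary cultures (MEFs) from C57BL6/J embryos (E15.5). The control group was labelled heterozygous for both genes (Cry1+/-Cry2+/-), although the study's design note calls it wild type, and the double knockout group (dKO) was Cry1-/-Cry2-/-. Each genotype received 1 µM dexamethasone (Dex) or its vehicle ethanol (EtOH) for 16 hours, with 3 arrays per group that the labels describe as biological replicates. The labels do not say how many embryos the cultures came from or whether a Dex and an EtOH array share one, so the p-values measure the spread between these arrays. Expression was read on Illumina bead arrays, and levels are given as log2 normalized signal, on which a difference of 1 is a 2-fold change. Signals of different probes are not on a common scale, so only levels of the same gene, or sums over the same probes, are compared.

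Cryptochromes are the repressor arm of the circadian clock. The activators CLOCK and BMAL1 (the product of Arntl) bind E-box elements and drive the Per and Cry genes together with output genes such as Dbp, Tef and the REV-ERB genes Nr1d1 and Nr1d2, and the PER and CRY proteins then repress the activators. REV-ERB proteins in turn repress genes with ROR elements, among them Arntl and Nfil3. Cryptochromes also bind the glucocorticoid receptor, the hormone-activated transcription factor through which dexamethasone induces genes such as Fkbp5, Tsc22d3 and Sgk1 and represses inflammatory genes.

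Between 42.6% and 44.6% of the probes were above background on the 6 Dex arrays, and their median signals before normalization ran from 187.5 to 206.1 intensity units. In a principal component analysis of these arrays the first component carried 63.6% of the variance and parted the genotypes. The second component carried 20.3% and set control Dex replicate 3 at -23.15, against 15.2 and 8.77 for the other control arrays and -3.46 to 3.22 for the knockout arrays. Where leaving it out changed the count of a gene list by over 1.5 times, the count without it is given. The deleted genes could not serve as a check of the labels. The Cry1 probe was not above background on any of the 6 arrays, in either genotype. The Cry2 probe read 6.79, 6.70 and 6.44 in the control and 6.88, 7.08 and 6.36 in the knockout arrays, above background on all of them, and the groups overlapped. Where these probes lie relative to the targeted exons was not stated in the labels. The probe for the receptor gene, Nr3c1, was above background on 1 of the 6 arrays, so its level was not compared.

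At an adjusted p under 0.05 in limma, 1651 of the 7968 genes (20.7%) differed between the genotypes under Dex. The directions were balanced, with 824 genes higher (10.3%) and 827 lower (10.4%) in the knockout, and the median difference over all genes was 0.01. The arrays were quantile normalized to the same distribution, which by itself favours such a balance and a small median. The largest differences were mostly increases: 39 genes were called at least 4-fold higher and 13 at least 4-fold lower. At 2-fold the counts were 197 (2.47%) and 148 (1.86%). The 3 knockout arrays lay wholly on one side of the 3 control arrays for 1633 of the 1651 called genes, against 37.3% of all genes tested. The call and this separation come from the same Dex arrays, so the separation describes the called genes and gives the calls no further support. In 54 called genes the control was at background on all 3 Dex arrays, and in 69 the knockout was. For these the fold is given as a lower bound, set against the dimmest probe still above background on each array. Such genes entered the test only through the other genotype, and the list counts below hold Ccl5, Rsad2, Tap1, Postn, Msx1, Nog, Myc, Mest and Upk3b among them. H2-K1 and Egr2 entered their lists in the same way but were not called. A further probe of the same gene was available for 378 called genes and moved in the same direction for 356 of them. Markers of more than 1 cell type were detected in these cultures, and fewer cells of a type and less RNA per cell cannot be told apart in such data.

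Most clock genes that cryptochromes are known to repress were higher in the knockout. Of the 15 genes listed as E-box clock outputs, 11 were tested, and 8 were higher and none lower, against 10.3% and 10.4% of all genes. Their median difference was 1.47, against 0.01 over all genes. Per3, Hlf, Bhlhe41 and Cry1 were below background on all 6 arrays. Over 27 alternative settings 7 or 8 were called higher and the median ran from 0.69, with no detection filter, to 1.70. Without control Dex replicate 3, 7 were called higher and the median was 1.19.

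Ciart encodes CHRONO, a repressor of CLOCK and BMAL1. It read 7.83, 7.87 and 7.40 in the control and 11.09, 11.15 and 11.07 in the knockout arrays. The groups were far apart, the knockout being 10.6-fold higher (log2 difference 3.40 ± 0.12 SE, adjusted p = 8.75e-09), and a second Ciart probe gave 3.64. Dbp, a PAR bZIP transcription factor that drives D-box genes, read 10.24, 10.27 and 10.07 against 13.22, 13.25 and 13.19. It was thus 8.13-fold higher (3.02 ± 0.11, adjusted p = 8.75e-09), and the replicates of each genotype lay close together. Per2, the partner of the cryptochromes in the repressor complex, read 7.58, 7.48 and 6.88 against 10.05, 9.84 and 9.99, which is 6.28-fold (2.65 ± 0.18, adjusted p = 1.74e-06). The second Per2 probe moved the same way, with 6.63, 6.78 and 7.10 against 10.30, 10.13 and 10.28, and one further Per2 probe was at background on all 6 arrays. Nr1d2, one of the REV-ERB repressors, read 6.76, 6.87 and 6.80 against 9.49, 9.07 and 9.36, a 5.64-fold difference (adjusted p = 5.92e-08).

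Tef, a relative of Dbp, stood at 8.47, 8.69 and 8.65 in the control and at 10.48, 10.26 and 10.18 in the knockout arrays, 3.25-fold higher without overlap (adjusted p = 7.66e-07). Nr1d1, the other REV-ERB gene, varied more among control arrays, at 7.19, 7.55 and 6.53, and read 8.52, 8.42 and 8.72 in the knockout, 2.76-fold higher (1.47 ± 0.26, adjusted p = 0.00193). Bhlhe40, whose product DEC1 also represses CLOCK and BMAL1, differed less, by 0.69 (1.61-fold, adjusted p = 0.000224). Per1 was the weakest of those called. It read 9.54, 9.39 and 9.13 against 9.66, 9.96 and 9.87, a 1.39-fold difference with adjusted p = 0.049, and it lost the call in 18 of 27 alternative settings. Without control Dex replicate 3 its adjusted p was 0.135. Wee1, Usp2 and Cry2 gave 0.12, -0.09 and 0.13 with overlapping arrays and did not pass the test.

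**Figure D1:**
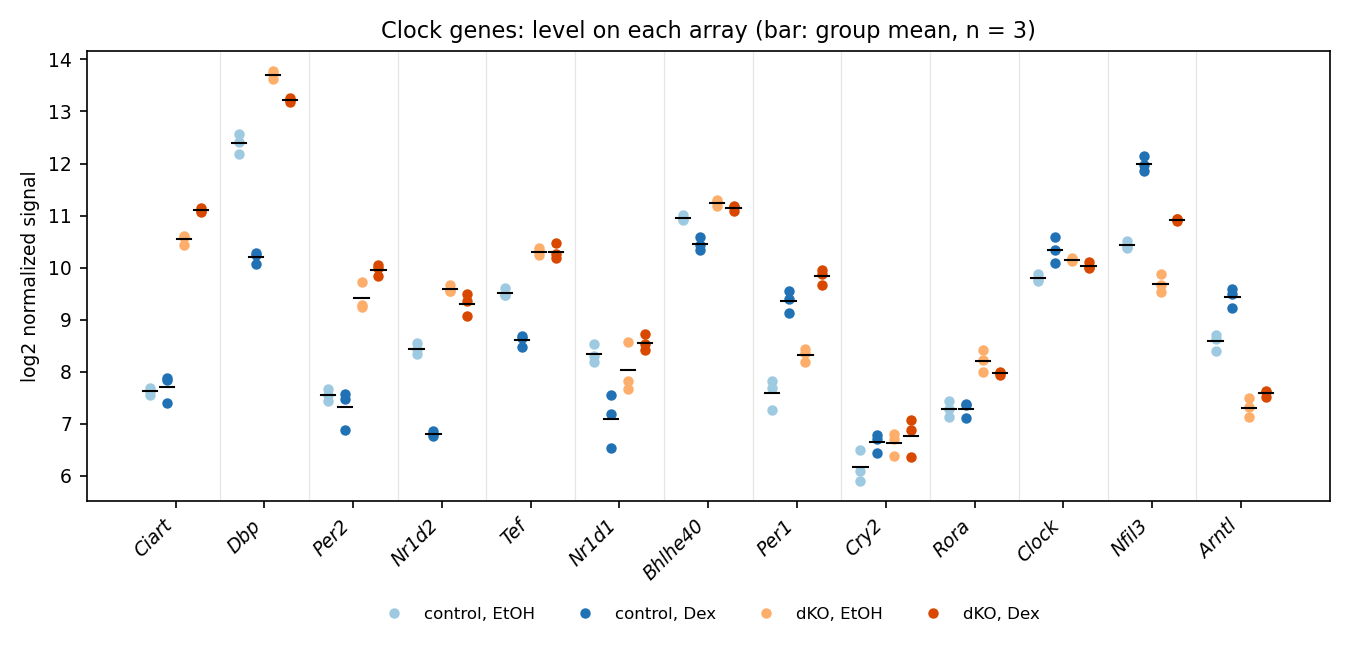
Log2 normalized signal (vertical axis) of 13 clock genes on each of the 12 arrays, by genotype and treatment, with a bar at each group mean of 3 arrays. Under Dex, Ciart, Dbp, Per2, Nr1d2, Tef and Nr1d1 lie higher in the knockout (dark orange) than in the control (dark blue) with no overlap, Arntl and Nfil3 lie lower, and Cry2 overlaps.

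The genes under ROR elements and the positive arm went the other way in part. Arntl read 9.23, 9.59 and 9.49 in the control and 7.60, 7.63 and 7.51 in the knockout arrays, 3.61-fold lower (-1.85 ± 0.13, adjusted p = 1.9e-06). Nfil3, a repressor that competes with Dbp at D-boxes, read 12.15, 11.96 and 11.86 against 10.94, 10.90 and 10.93, 2.10-fold lower (adjusted p = 3.17e-05). Rora, an activator at ROR elements, was 1.62-fold higher (adjusted p = 0.00234). Clock itself read 10.09, 10.33 and 10.59 against 10.00, 10.10 and 10.02 and did not pass (-0.30 ± 0.12, adjusted p = 0.0951). Rorb, the last of the 5 genes tested from this list, gave 0.37 near background. None of the 5 tested kinases and ubiquitin ligases that act on PER and CRY proteins (Csnk1d, Csnk1e, Csnk2a1, Gsk3b, Btrc) was called, against 20.7% of all genes. Their differences ran from -0.43 to 0.41 on the log2 scale, and 5 genes are few to set against that share.

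Promoter stretches are shown for the called clock genes in which the canonical E-box CACGTG or the ROR element core TAGGTCA occurred, because these are the letters through which the 2 arms of the clock are known to act. RefSeq promoter windows on build GRCm38.p6, which span each transcript start, were searched on both strands, and they were at hand for 8 of the 11 tested clock outputs. The palindrome CACGTG was in 3 of these 8, namely Ciart, Tef and Per1. Ciart is on the minus strand of chromosome 3 (chr3:95882229-95882408), and the other lines are Per1 on the plus strand (chr11:69098769-69098948), the upstream Tef start on the plus strand (chr15:81802493-81802672), the downstream Tef start on the plus strand (chr15:81811234-81811413), Nfil3 on the minus strand (chr13:52981040-52981099) and Arntl on the plus strand (chr7:113207531-113207560). Each sequence reads 5′ to 3′ along the gene's strand. All but the last end just before the transcript start, and that of Arntl runs from base 21 to base 50 after it. Capitals mark CACGTG in Ciart, Per1 and Tef, TAGGTCA in Arntl and its reverse complement TGACCTA in Nfil3.
Ciart: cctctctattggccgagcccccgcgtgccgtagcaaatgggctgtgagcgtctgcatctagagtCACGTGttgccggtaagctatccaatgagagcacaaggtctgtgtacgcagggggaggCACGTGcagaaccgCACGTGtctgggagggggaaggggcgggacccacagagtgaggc
Per1: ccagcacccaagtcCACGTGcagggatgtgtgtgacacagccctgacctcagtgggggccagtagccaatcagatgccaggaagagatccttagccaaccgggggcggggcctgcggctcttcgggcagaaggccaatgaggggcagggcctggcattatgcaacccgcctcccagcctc
Tef, upstream start: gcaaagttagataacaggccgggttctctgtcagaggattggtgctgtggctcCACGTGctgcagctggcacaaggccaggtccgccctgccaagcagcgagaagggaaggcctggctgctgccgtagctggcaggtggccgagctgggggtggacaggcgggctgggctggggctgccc
Tef, downstream start: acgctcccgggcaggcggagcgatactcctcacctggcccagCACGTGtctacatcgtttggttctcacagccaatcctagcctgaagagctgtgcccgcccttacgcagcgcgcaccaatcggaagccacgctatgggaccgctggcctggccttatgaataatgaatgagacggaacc
Nfil3: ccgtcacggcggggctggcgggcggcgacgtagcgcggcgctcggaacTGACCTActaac
Arntl: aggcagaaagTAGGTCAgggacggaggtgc

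The Ciart window held 3 E-boxes, at 116, 58 and 44 bases before the start. No CACGTG was in the windows of Dbp, Nr1d2 and Nr1d1, which were also called higher. Per1, the weakest of the clock outputs called, held it in its upstream window but not in its downstream window. For Arntl, TAGGTCA was in the downstream window but not in the upstream window. Over all 6536 tested genes with a window, 785 (12%) held CACGTG. The share was smaller among those called higher, at 9.84%, and 72 of the 656 called lower held it. At 2-fold it was in 9.29% of those higher and in 5.66% of those lower. Over all 27025 genes of the table, tested or not, the share was 8.09%. TAGGTCA was in 2.97% of all windows, in 2.26% of windows of tested genes, in 1.45% of those called higher and in 3.35% of those called lower. At 2-fold it was in 0.714% of those higher and in 4.72% of those lower, which was 5 of 106. The D-box TTANGTAA was in 2.72% of all windows, in 1.85% of tested genes, in 3.23% of those called higher and in 1.52% of those called lower. At 2-fold it was in 4.29% of those higher, which was 6 of 140, and in 2.83% of those lower, which was 3 of 106. These matches are a description of letters in the window, and a window without a match says nothing of more distant sites.

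Some genes had levels much like those of Per2 over the 12 arrays, and the 5 most alike are given. Their Pearson correlations with Per2 were 0.987 for Olfm1, a secreted olfactomedin protein, 0.987 for Ciart, 0.984 for the water channel Aqp5, 0.983 for Ccn5, a secreted CCN protein, and 0.981 for Tmem100, a membrane protein. The points share 4 groups, so these values describe the group pattern. Under Dex, Olfm1 was 3.71-fold, Ccn5 3.68-fold and Tmem100 2.98-fold higher in the knockout.

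Genes that glucocorticoids induce did not move together. Of 30 tested, 5 were higher and 7 lower in the knockout under Dex, against 10.3% and 10.4% of all genes. Their median was -0.04, and 4 were lower when control Dex replicate 1 or dKO Dex replicate 1 was left out. Fkbp5, the co-chaperone that restrains the receptor, read 12.49, 12.35 and 12 in the control and 11.55, 11.76 and 11.71 in the knockout arrays. It was 1.52-fold lower (-0.61 ± 0.15, adjusted p = 0.0124), without overlap, and already lower under EtOH (-0.93). Its adjusted p rose to at most 0.0522 when control Dex replicate 1 or dKO Dex replicate 1 was left out. Tsc22d3, which encodes the anti-inflammatory protein GILZ, went the other way, with 13.58, 13.30 and 13.30 against 13.90, 14.10 and 14.16, 1.58-fold higher (adjusted p = 0.000945), and it too differed under EtOH (1.07). Sgk1, a kinase that regulates ion transport, read 14.00, 13.97 and 13.93 against 13.69, 13.58 and 13.69. The arrays did not overlap, but the adjusted p of this 1.24-fold lower level was 0.0474, and 18 of 27 alternatives lost the call, among them the removal of any one of the 6 Dex arrays.

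Hspb7, a small heat shock protein, differed most in this list. It read 8.49, 8.15 and 7.90 against 10.04, 10.18 and 10.42 and was 4.10-fold higher (adjusted p = 0.000421). Lcn2, an iron-siderophore binding protein, read 11.73, 11.25 and 11.32 against 9.97, 9.71 and 9.74, 3.10-fold lower (-1.63 ± 0.14, adjusted p = 7.73e-06). Lbp, the lipopolysaccharide binding protein, was 2.81-fold lower (adjusted p = 0.000596) and Saa3, a serum amyloid protein, 2.94-fold lower (adjusted p = 0.000953). Hsd11b1, the enzyme that regenerates active glucocorticoid, was 2.35-fold higher (1.23 ± 0.18, adjusted p = 0.00044) and above background on 2 of the 3 control arrays, and Sult1a1, a sulfotransferase, 1.40-fold higher. Bcl6 and Nfkbia were lower, by 1.28-fold and 1.36-fold. Several other induced genes, named here after their values were seen, showed small differences with overlapping arrays: Klf9 gave 0.00, Errfi1 0.02, Pdk4 0.02, Cdkn1c -0.03 and Rgcc -0.03. Their SEs were between 0.10 and 0.20.

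The response to Dex within each genotype used the same Dex arrays and is set beside these values without a test of overlap. Fkbp5 changed by 4.50 in the control and by 4.82 in the knockout, Tsc22d3 by 2.36 and 1.95, and Sgk1 by 1.96 and 1.65. Lcn2 was at background on the EtOH arrays of both genotypes, so its change with Dex has no measured size. Among the receptor's chaperones and coregulators, 2 of 8 tested genes were called, against 20.7% of all genes. Both were lower and close to the threshold: the coactivator Ncoa1 (-0.62, adjusted p = 0.0419) and the co-chaperone Stip1 (-0.32, adjusted p = 0.0465). Of 27 alternatives, 13 and 21 lost them, the removal of control Dex replicate 3 being one for each.

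Inflammatory genes that glucocorticoids repress were split as well. Of 15 tested, 3 were higher and 4 lower, against 10.3% and 10.4% of all genes. Their median was 0.01, and 2 were lower when control Dex replicate 1 or any one of the knockout Dex arrays was left out. The stromelysin Mmp3 read 7.95, 7.75 and 7.44 in the control and 10.26, 10.08 and 10.17 in the knockout arrays, 5.51-fold higher (adjusted p = 2.21e-07), and the collagenase Mmp13 was 3.17-fold higher (adjusted p = 3.4e-06). Ch25h, which makes 25-hydroxycholesterol, was 1.55-fold higher. Cxcl12, a chemokine of stromal cells, read 12.37, 12.56 and 13.67 against 10.79, 10.81 and 10.82. All control arrays were above all knockout arrays, replicate 3 by the most, and the fold was 4.16 lower (-2.06 ± 0.41, adjusted p = 0.0037), or -1.66 without that array (adjusted p = 0.0104). The 2 further Cxcl12 probes gave -2.04 and -2.30. Ccl5 was at background in the knockout (at least 1.51-fold lower, adjusted p = 0.00639), and Ccl12 and the adhesion molecule Vcam1 were lower by 0.47 and 0.41 on the log2 scale.

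Adh7, an alcohol dehydrogenase that acts on retinol, showed the largest fold among genes read in both genotypes. It read 6.36, 6.65 and 6.89 in the control and 11.70, 11.62 and 11.61 in the knockout arrays, 32.3-fold higher (5.01 ± 0.13, adjusted p = 1.17e-09). Slc1a3, a glutamate transporter, was at background in the control and read 10.70, 10.49 and 10.10 in the knockout, at least 18.98-fold higher (adjusted p = 8.75e-09). Aldh3a1, an aldehyde dehydrogenase, read 6.44, 6.86 and 5.82 against 10.54, 10.69 and 10.67, which is 19.1-fold (4.26 ± 0.30), with 2 of the 3 control arrays above background. Aqp5 followed at 12.9-fold, Xlr4a at 9.16-fold, Wfdc1 at 8.74-fold, with 2 of 3 control arrays above background, and Osr2, a zinc finger factor of limb and palate development, at 6.71-fold. Xlr4a belongs to a family of near-identical X-linked copies, so its probe may read more than 1 of them. Another 4 were at background in the control: Vit, a matrix protein, was at least 5.88-fold higher, the beta-defensin Defb1 at least 5.75-fold, the sodium pump regulator Fxyd6 at least 7.28-fold and the chemokine Cxcl15 at least 3.78-fold. Ramp2, a co-receptor for adrenomedullin, read 7.87, 7.66 and 7.22 against 10.42, 10.70 and 10.27, 7.36-fold higher (adjusted p = 1.76e-06). Comp and the clock genes Ciart and Dbp complete the 15 largest.

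Wt1, a zinc finger factor of mesothelial cells, kidney and gonad, led the genes with lower levels. It read 10.33, 10.07 and 10.05 in the control and 6.61, 6.54 and 6.93 in the knockout arrays, 10.98-fold lower (-3.46 ± 0.13, adjusted p = 1.47e-08). Napsa, an aspartic protease, was at background in the knockout and at least 5.01-fold lower. Jaml, an adhesion molecule, read 8.79, 8.91 and 8.75 against 6.33, 6 and 5.91, 6.66-fold lower (adjusted p = 3.38e-06), but 1 of its 3 knockout arrays was above background, so the fold is only roughly known. Upk1b, a uroplakin, was 5.52-fold lower. Dlk1, an imprinted inhibitor of adipogenesis, varied among control arrays (12.24, 11.40 and 10.97) and read 9.34, 9.26 and 9.60 in the knockout, 4.41-fold lower (adjusted p = 0.000146). The Krüppel-like factor Klf5 varied likewise (12.45, 12.17 and 11.44 against 9.81, 9.89 and 9.95) and was 4.39-fold lower. Arg1, the arginase of macrophages and liver, was at least 1.83-fold lower and Sirpb1a, one of several closely related receptor genes, at least 2.72-fold lower. The transporter Slc15a3, the myeloid gene Ly86, Arhgap25, Fam180a, the protease inhibitor Spink8 and the homeobox gene Gsc were 3.77-fold to 4.27-fold lower, with Ly86 above background on 2 of its 3 knockout arrays.

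**Figure D2:**
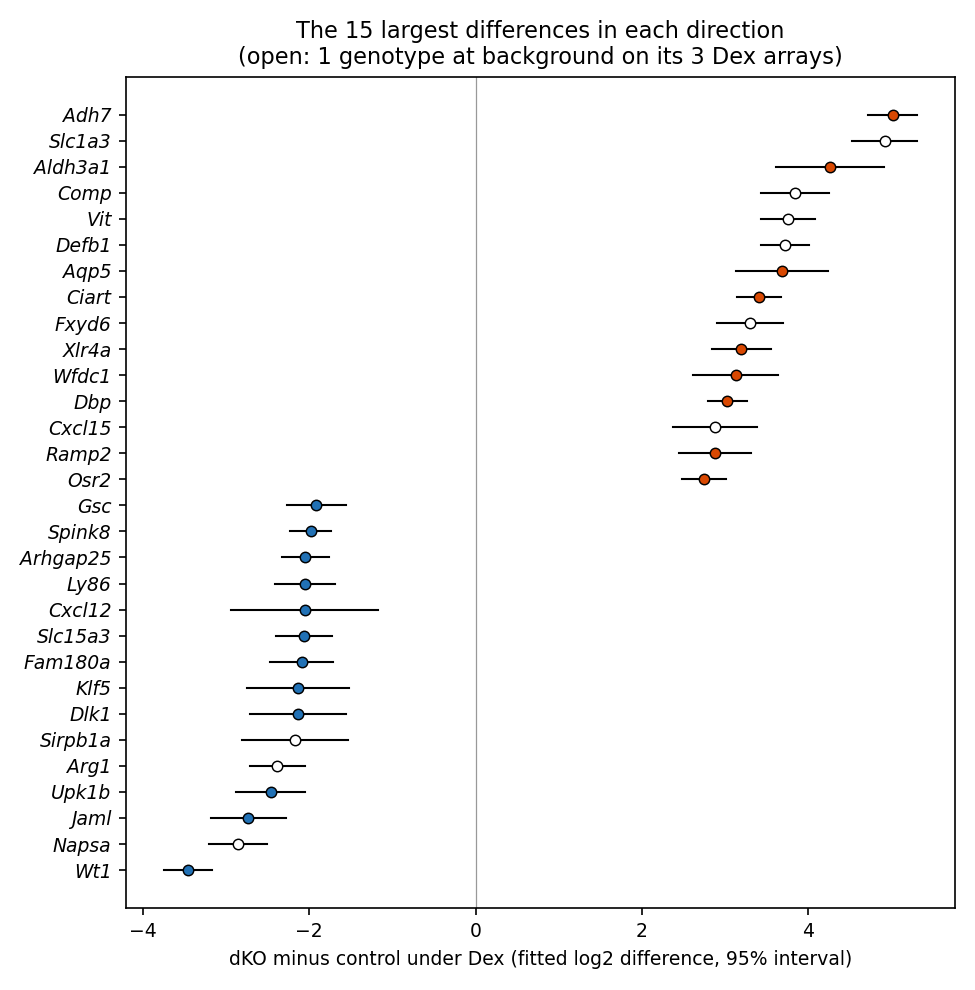
Fitted log2 difference between knockout and control under Dex (horizontal axis) with its 95% interval for the 15 largest differences in each direction among called genes with non-overlapping arrays. Open points are genes at background on the 3 Dex arrays of 1 genotype, whose fitted values are not bounds. Adh7 leads the genes higher in the knockout at 5.01 and Wt1 the genes lower at -3.46.

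Markers of cell types in the cultures differed between the genotypes. Macrophage markers were lower in the knockout, 12 of 14 tested and none higher, against 10.4% and 10.3% of all genes. Their median was -0.67, against 0.01 over all genes. Summed over the same 17 probes on every array, of which those below background are a part, their level was 215000 to 224400 normalized units in the control and 162000 to 167100 in the knockout Dex arrays, and Itgam, Ptprc and Clec7a were not tested because they were below the detection rule. C1qc, a complement subunit made by macrophages, read 13.86, 13.85 and 13.71 against 12.93, 12.93 and 12.85, 1.88-fold lower (adjusted p = 0.000377). Laptm5, a lysosomal protein of leukocytes, was 1.57-fold lower, the mannose receptor Mrc1 1.77-fold and the Fc receptor chain Fcer1g 1.70-fold lower. Lyz2 gave -0.42 and was not called. Lyz1 read 16.10, 16.09 and 16.08 against 16.02, 16.07 and 16.08, close to the highest level on each array, where a difference could not be read, and its probe is part of the sum.

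Mesothelial markers were also lower, in all 4 tested genes of the 8 on the array, against 10.4% of all genes tested. Their median was -1.87, and it was -0.41 with no detection filter, which adds the other 4. They were Wt1, Upk1b, the keratin Krt19 (2.41-fold lower, above background on 2 of 3 knockout arrays) and Upk3b (at least 1.18-fold). Upk3b was at background in the knockout and entered the test only through the control, so it could only be lower. The summed level of the 8 listed genes on the array was 2205 to 2530 in the control and 518.1 to 564.1 in the knockout, and Msln, Lrrn4, Rspo1 and Gpm6a did not meet the detection rule. The endothelial receptor Flt1 was 3.55-fold lower, while Emcn and Egfl7, the other tested genes of that list, were not called. Pecam1, Cdh5, Kdr and Tek did not meet the detection rule. Summed endothelial markers ran from 1897 to 2490 in the control and from 1403 to 1439 in the knockout. Flt1, whose mean was 9.92 in the control and 8.09 in the knockout, is part of this sum. The sum is thus no reading of the list apart from Flt1.

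Fibroblast markers were higher in the knockout for 7 of 10 genes and lower for none, against 10.3% and 10.4% of all genes, with a median of 0.56. Lum and Fap did not meet the detection rule. The summed level was 62840 to 69790 in the control and 101500 to 106400 in the knockout. Bright probes weigh most in this sum, such as Vim, whose mean was 14.98 in the control and 15.37 in the knockout. The surface glycoprotein Thy1 was 2.26-fold higher (adjusted p = 0.000126), and the collagen genes Col1a2 and Col3a1 were 1.80-fold and 1.72-fold higher. Col1a1 (0.16) and Dcn (0.07) were not called. Of the 14 cartilage and bone markers on the array, Col2a1 and Sox9 were read in both genotypes. Comp, Col10a1 and Sp7 entered the test only through the knockout, where they were above background, and the other 9 were not tested. Comp, a cartilage matrix protein, was at background in the control and read 9.60, 9.61 and 9.59 in the knockout arrays, at least 10.71-fold higher (adjusted p = 1.05e-07). Col2a1, the cartilage collagen, read 7.35, 6.96 and 7.49 against 9.43, 9.28 and 9.41, 4.31-fold higher, while Col10a1 and the osteoblast factor Sp7 were at least 2.02-fold and 1.42-fold higher. Acan, Ibsp and Bglap did not meet the detection rule, and with no detection filter the median of the list was 0.20. Sox9, the cartilage master regulator, gave 0.27 with overlapping arrays. Skeletal muscle actin Acta1 was 2.93-fold higher and the intermediate filament gene Des 3.15-fold lower. Of 5 tested neural and glial markers, 2 were higher and 1 lower, against 10.3% and 10.4% of all genes. Stmn2, a neuronal microtubule protein, was 4.70-fold higher, and Map2 was higher too. Gap43 was lower, a call lost in 14 of 27 alternatives, and Nes and Ncam1 were not called. Tubb3, Dcx and Elavl3 did not meet the detection rule. No erythroid marker was above background. The part of these cell type differences in the other results was not tested.

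Interferon-stimulated genes were mostly lower in the knockout where they differed. Of 15 tested, 7 were lower, against 10.4% of all genes, and of the 14 read in both genotypes 6 were lower. Only 1, Ifit3, was higher (0.69, adjusted p = 0.0382), against 10.3% of all genes, and the median was -0.65. Usp18, which limits interferon receptor signalling, read 9.58, 8.98 and 9.05 against 7.82, 7.75 and 7.31, 2.99-fold lower (adjusted p = 0.000468). The antiviral gene Rsad2 was at background in the knockout (at least 1.58-fold lower), Parp14 was 2.06-fold lower and Oasl2 1.95-fold lower. Antigen presentation genes moved the same way, 7 of 10 lower (6 of 8 among those read in both genotypes) and none higher, with a median of -0.61, or -0.52 with bounds. They included the class I gene H2-D1 (2.18-fold lower), whose probe may read related class I genes, the immunoproteasome subunit Psmb9 (1.53-fold) and the transporter Tap2 (1.54-fold). Without control Dex replicate 3, 8 interferon genes were lower and none higher, so the call of Ifit3 was lost, and 5 antigen presentation genes were lower. The antigen presentation count was 3 without control Dex replicate 1 or dKO Dex replicate 3. Complement and acute phase genes were lower for 6 of 13 and higher for 1, against 10.4% and 10.3% of all genes. The higher count was 2 without control Dex replicate 1 or 3. Besides Lcn2, Lbp and Saa3, the complement protease C2 was 1.53-fold lower and haptoglobin, Hp, 2.49-fold lower. Il1rn, the interleukin 1 receptor antagonist, read 8.07, 8.81 and 7.83 against 10.42, 10.10 and 10.36, 4.16-fold higher (adjusted p = 0.000102).

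Developmental regulators differed in both directions. Of 15 Hox genes tested, 3 were higher and 4 lower, against 10.3% and 10.4% of all genes. Hoxd10, a posterior limb gene, read 6.71, 6.85 and 7.02 in the control and 8.69, 8.51 and 8.53 in the knockout arrays, 3.28-fold higher (adjusted p = 3.17e-06), and Hoxb9 and Hoxb7 were higher by 0.70 and 0.58 on the log2 scale. Hoxa7 was 2.17-fold lower (adjusted p = 3.47e-05), Hoxa5 1.80-fold, Hoxc6 1.53-fold and Hoxd8 1.47-fold lower. Limb and face patterning genes were higher for 6 of 11 and lower for 2, with a median of 0.47, and 1 was lower without control Dex replicate 1 or 2 or dKO Dex replicate 2 or 3. Dlx1, a homeobox gene of the branchial arches, was 2.74-fold higher (adjusted p = 8.92e-06) and Msx1 at least 2.17-fold. Tbx3 and Prrx1 rose by 0.78 and 0.59, and Meis2 and Twist2 were 1.38-fold and 1.40-fold lower.

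Secreted growth signals differed in part, and the lists here are set against 10.3% higher and 10.4% lower over all genes. Insulin-like growth factor genes and their relatives were higher for 6 of 18 and lower for 3, or 1 without control Dex replicate 1. Igfbp4, an IGF binding protein, read 10.44, 10.48 and 10.50 against 12.06, 12.20 and 12.16, 3.17-fold higher (1.66 ± 0.09, adjusted p = 3.39e-07). Igfbp2 was 2.15-fold and the limb growth factor Fgf10 1.84-fold higher. Igf1 itself read 11.31, 11.18 and 11.37 against 10.55, 10.60 and 10.52, 1.66-fold lower (adjusted p = 0.000447). Wnt pathway genes were higher for 6 of 14 and lower for 1, Wnt2 (-0.55). The Wnt agonist Rspo2 was 4.56-fold higher, and the antagonists Dkk3 and Sfrp1 were 2.41-fold and 2.32-fold higher. Of 26 BMP and TGF-beta genes, 4 were higher, near the share of all genes, and 7 lower. Bmp4 was 2.06-fold higher and the BMP-responsive gene Id4 2.11-fold higher, while the co-receptor Tgfbr3 was 2.51-fold lower, the BMP binding protein Bmper 2.39-fold and Ltbp1, which holds latent TGF-beta in the matrix, 2.25-fold lower.

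Proliferation genes were mostly lower where they differed. Of 22 tested cell cycle genes, 8 were lower and 1 higher, with a median of -0.34. The number lower ran from 4 to 13 over the alternatives and was 4 without control Dex replicate 2, dKO Dex replicate 2 or dKO Dex replicate 3. Topoisomerase Top2a read 8.76, 8.82 and 9.09 against 7.95, 7.64 and 7.65, 2.21-fold lower (adjusted p = 0.000953), Bub1b of the spindle checkpoint was 1.88-fold lower, the ribonucleotide reductase subunit Rrm1 1.57-fold and survivin, Birc5, 1.48-fold lower. Cyclin D1, Ccnd1, was the exception, with 14.76, 14.93 and 14.70 against 15.66, 15.68 and 15.56, 1.79-fold higher (adjusted p = 0.000209). The cell cycle inhibitors Cdkn2a and Cdkn2b were 1.35-fold and 1.28-fold higher and Mdm2 1.45-fold lower, out of 12 genes tested in their list. Among all genes tested, 10.3% were higher and 10.4% lower. Cdkn2b lost the call in 9 of 27 alternatives and Cdkn2a in 1. Immediate early and stress genes were lower for 5 of 19 and higher for 2, with the higher calls at 1 without control Dex replicate 3 and at 0 without dKO Dex replicate 1 or 3. Jun read 9.61, 9.39 and 9.52 against 8.44, 8.49 and 8.43, 2.08-fold lower (adjusted p = 2.65e-05), Fos was 1.85-fold and Atf3 1.82-fold lower, and Myc was at background in the knockout (at least 1.36-fold lower).

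Detoxification genes were higher for 6 of 21 and lower for 1, or 2 without control Dex replicate 3. For this and the lists that follow, the shares over all genes were 10.3% higher and 10.4% lower. Apart from Aldh3a1 the higher detoxification genes included the glutathione transferase Gstt1 (3.37-fold, adjusted p = 2.96e-06), the quinone reductase Nqo1 (2.96-fold), the extracellular superoxide dismutase Sod3 (3.25-fold, above background on 2 of 3 control arrays) and Gstm1 (1.75-fold), while heme oxygenase, Hmox1, was 1.68-fold lower. Fat storage genes were split, 2 of 9 higher and 3 lower: the lipolysis inhibitor G0s2 was 2.91-fold higher and the lipid droplet protein Plin2 2.33-fold lower. Collagen and matrix genes were higher for 4 of 24 and lower for 4, with the proteoglycan Ogn 2.22-fold higher (adjusted p = 5.6e-06) and Thbs2 1.78-fold lower. In the metalloproteinase list 2 of 12 were higher, Mmp3 and Mmp13, and 2 lower. These were the macrophage elastase Mmp12 (3.54-fold lower, adjusted p = 1.19e-06) and the gelatinase Mmp2 (2.02-fold). Without control Dex replicate 3, 4 were lower. Of 7 imprinted genes 1, Mest, was at least 2.49-fold higher and 3 were lower, Dlk1, the amino acid transporter Slc38a4 (1.92-fold) and Igf2 (1.72-fold), whose call was lost in 8 of 27 alternatives. Smooth muscle contractile genes were higher for 2 of 13 and lower for 1, near the shares of all genes. The higher count was 1 without control Dex replicate 3 and 0 without any one of the other Dex arrays. Hypoxia and glycolysis genes were lower for 2 of 17, near the share of all genes, and without control Dex replicate 3, 1 was lower and 1 higher. None of 12 cholesterol synthesis genes was called in limma.

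**Figure D3:**
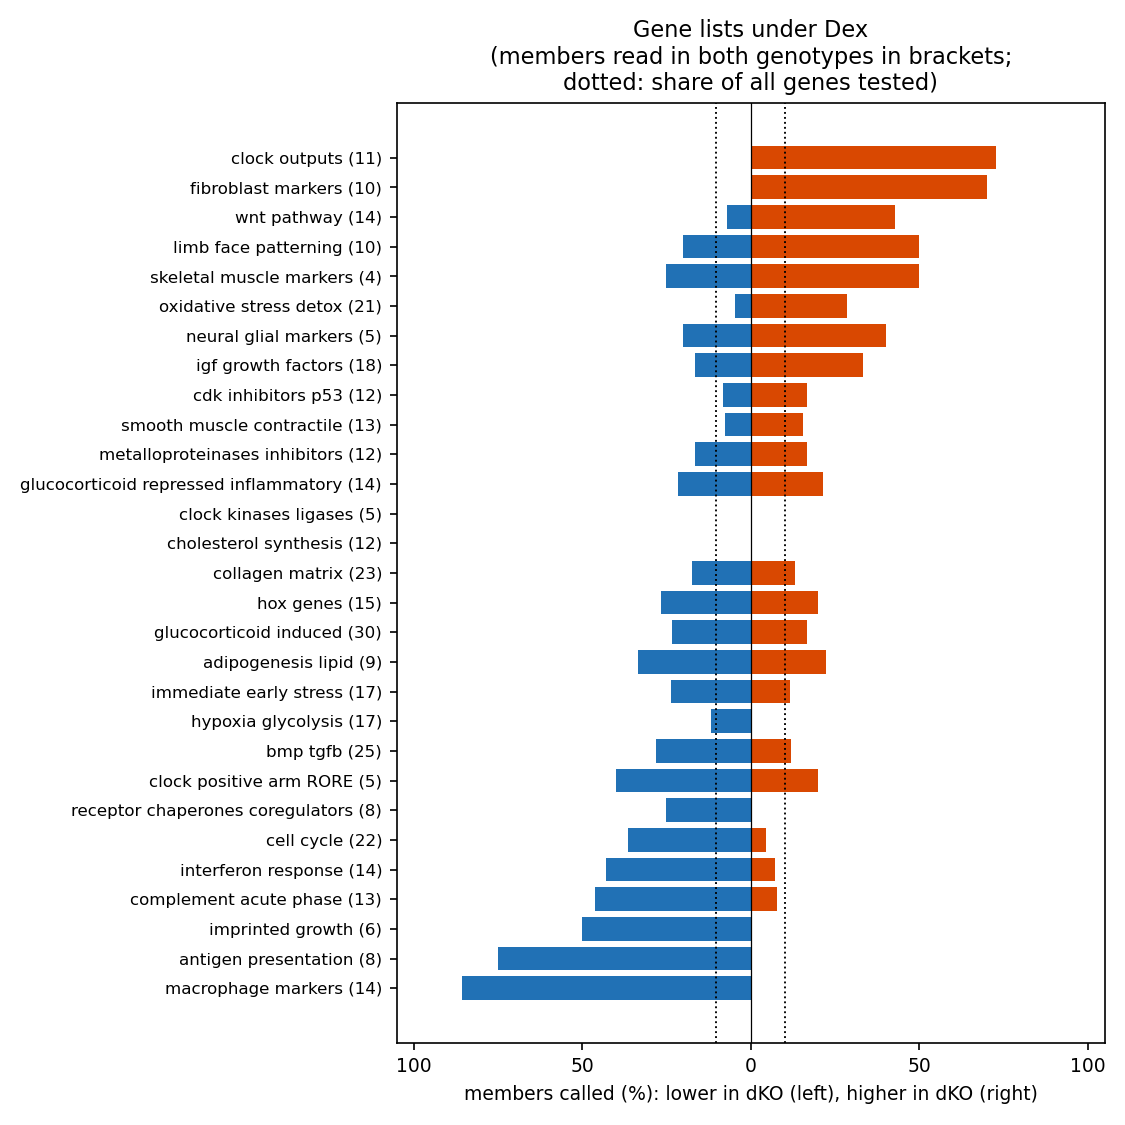
Share of the members of each gene list read in both genotypes that were called lower (bars to the left, percent) or higher (bars to the right, percent) in the knockout under Dex, with their number in brackets and dotted lines at the shares over all genes tested, 10.4% lower and 10.3% higher. Lists with at least 4 such members are drawn. Clock outputs and fibroblast markers lie furthest to the right and macrophage markers furthest to the left.

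The same genotypes under EtOH were read on 6 other arrays. There 2168 of the same genes differed (27.2%), 886 higher (11.1%) and 1282 lower (16.1%). Of the 824 genes higher under Dex, 396 were also called higher under EtOH, which is 48.1% of the Dex list and 44.7% of the EtOH list. Of the 827 lower under Dex, 506 were also called lower under EtOH, or 61.2% of the Dex list and 39.5% of the EtOH list. The fits share an estimate of the spread. When the Dex and EtOH arrays were fitted separately, an alternative added after seeing the data, 325 and 407 genes were called higher and lower in both. By sign alone, 85.2% of the genes higher and 89.0% of those lower under Dex had the same direction under EtOH, against 63.3% of all genes. Of these lists, 12 and 24 genes were called in opposite directions under EtOH. The list medians under EtOH were 0.73 for clock outputs, with 7 higher and 1, Usp2, lower, -0.79 for macrophage markers, 0.64 for fibroblast markers and -1.29 for interferon-stimulated genes, with 11 lower. Under EtOH Adh7 differed by 4.32, Wt1 was at background in the knockout and at least 10.43-fold lower, and Slc1a3, above background on 2 of the 3 control EtOH arrays, was again higher in the knockout.

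**Figure D4:**
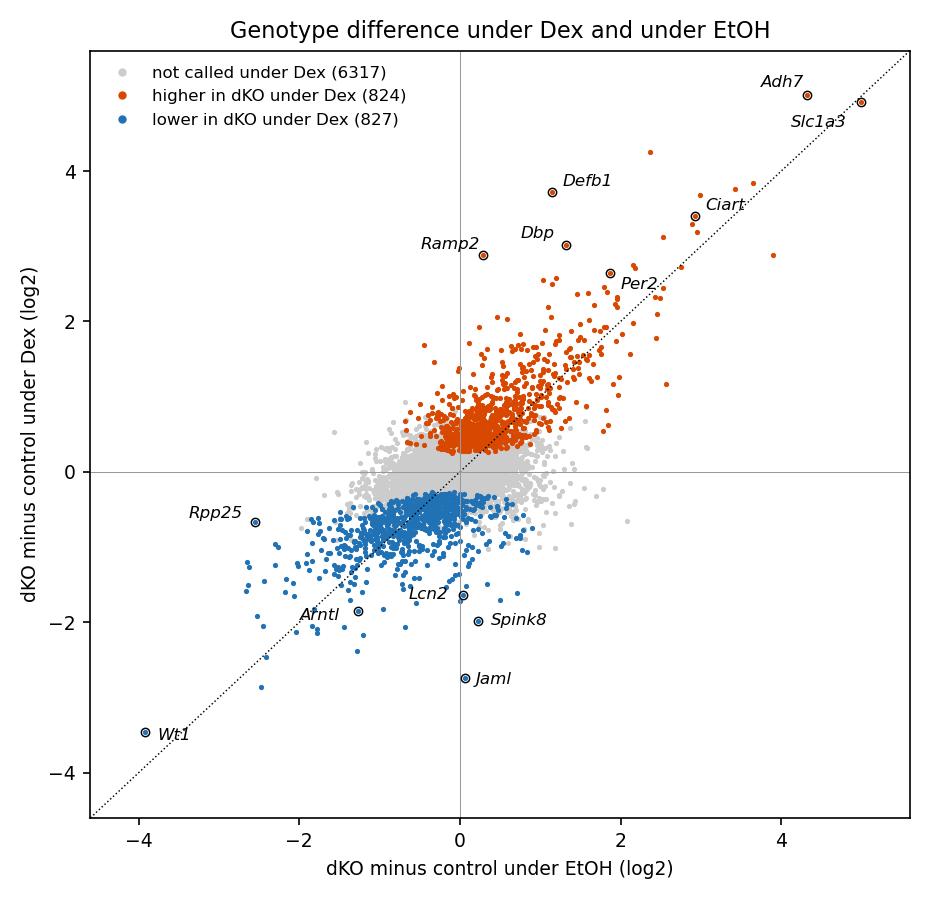
Log2 difference between knockout and control under Dex (vertical axis) against that under EtOH (horizontal axis) for the 7968 genes, with genes called under Dex coloured and the dotted line marking equal differences. Adh7, Slc1a3, Ciart and Wt1 lie near the line, Ramp2 and Defb1 above it, and Jaml, Spink8 and Lcn2 near 0 on the horizontal axis.

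The test of the difference itself, the genotype difference under Dex minus that under EtOH, called 215 genes (2.7%), 119 above (1.49%) and 96 below 0 (1.2%). Of these, 143 were also called under Dex. The count depended strongly on single arrays. It ranged from 32 without control EtOH replicate 3 to 1237 without dKO EtOH replicate 3, and it was 114 without control Dex replicate 3. In an earlier principal component analysis of all 12 arrays, control Dex replicate 3 and dKO EtOH replicates 1 and 2 stood apart, and without these 3 arrays 85 genes were called.

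Among clock genes the test called Dbp, Nr1d2, Tef and Nr1d1. Dbp changed by -2.19 from EtOH to Dex in the control and by -0.49 in the knockout, so its genotype difference was 1.70 larger under Dex (adjusted p = 0.000249). Nr1d2 changed by -1.63 and -0.28 (adjusted p of the difference 0.00136), Tef by -0.92 and 0.00 (0.0141) and Nr1d1 by -1.26 and 0.53 (0.0343). Per2 and Ciart did not pass (0.78, adjusted p = 0.111, and 0.48, adjusted p = 0.137).

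Outside the clock, Ramp2 rose by 3.15 with Dex in the knockout and read 0.56 in the control, and its genotype difference was 0.29 under EtOH and 2.88 under Dex (adjusted p of the difference 0.000659). Defb1 was above background on the knockout Dex arrays alone, among the 4 groups, with an adjusted p of the difference of 5.39e-05. Gsta3, a glutathione transferase, was 3.22-fold higher under Dex and lower by 0.45 on the log2 scale under EtOH (adjusted p = 0.000335). Anxa8, an annexin, was 3.05-fold lower under Dex (12.50, 12.25 and 12.62 against 10.67, 10.85 and 11.03) and higher by 0.71 under EtOH (adjusted p of the difference 9.16e-05). The small GTPase gene Rab15 and Tinagl1, a secreted matrix protein, followed the same pattern, with -0.94 and -0.77 under Dex and 0.54 and 0.79 under EtOH. Stard10, a lipid transfer protein, differed under EtOH (1.17) and gave -0.20 under Dex. Jaml, Spink8 and Lcn2 were at background under EtOH in both genotypes, so their genotype difference could be read only under Dex. Rnase2a, a ribonuclease with close paralogs, and Rpp25, a ribonuclease P subunit, were at background in the knockout under EtOH and 2.30-fold and 1.58-fold lower under Dex.

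**Figure D5:**
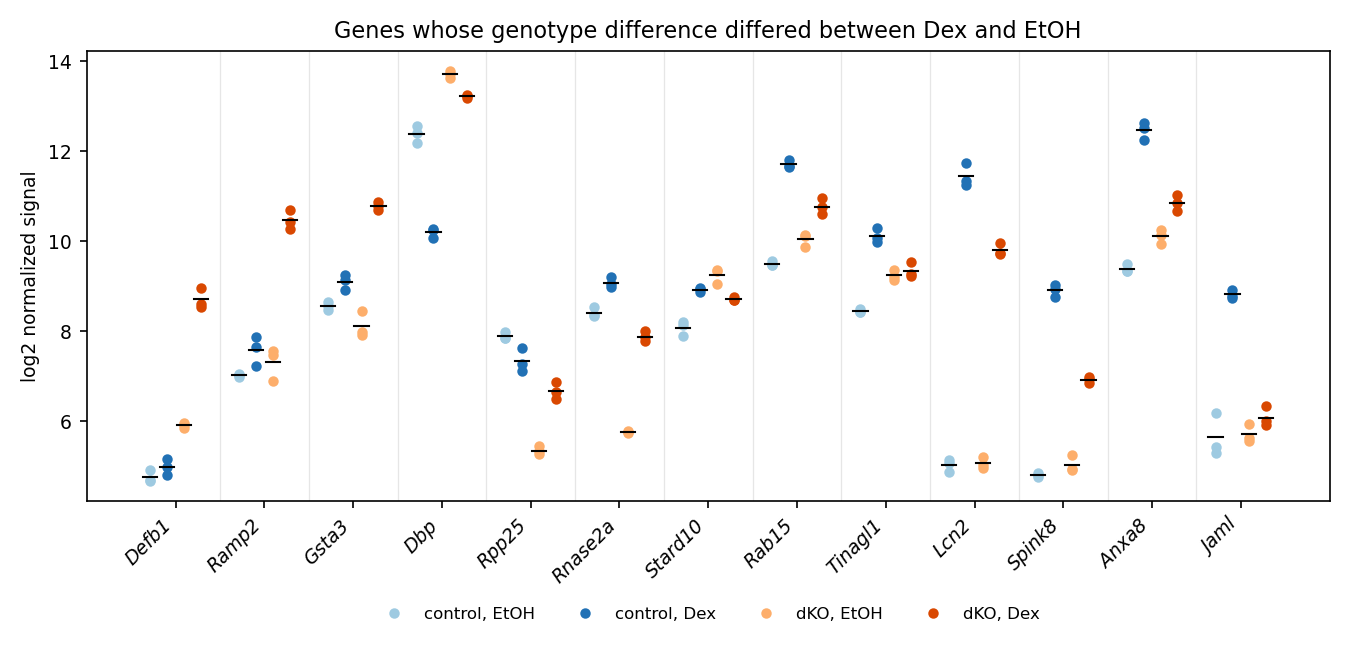
Log2 normalized signal (vertical axis) on each of the 12 arrays for the 12 genes with the smallest p in the test of the difference between treatments, 6 in each direction, and for Lcn2, with a bar at each group mean of 3 arrays. Defb1 and Ramp2 are highest on the knockout Dex arrays, and Jaml, Spink8, Lcn2 and Anxa8 are highest on the control Dex arrays.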

How the data were processed

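Total RNA was biotin-labelled and hybridised to Illumina bead arrays, per the labels' protocols. The authors deposited a table of average signal intensity per probe and array, before normalization, with a detection p-value beside each, per the file headers, and a value table of processed intensity that ranks the probes of each array identically. GenomeStudio is named in the submitters' processing notes, with no version.

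From the deposited intensities, background was corrected with limma's nec (offset 16) using the detection p-values, arrays were quantile normalized over all 12, and log2 was taken. Probe names came from the platform annotation, updated through gene identifiers: 23978 of 25697 probes had 1 symbol and 1719 none. A linear model with 4 group means was fitted with lmFit and eBayes (limma 3.58.1, R 4.3.3, 11.7 degrees of freedom with the prior), contrasts were adjusted by Benjamini-Hochberg over 7968 genes, and genes with adjusted p under 0.05 were called. The test was checked on simulated data. The median SE of a difference was 0.14. The number of arrays limits the precision.

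Genes named are the 15 largest called differences in each direction with non-overlapping arrays, up to 6 members of each list with the smallest p, the members of the clock lists, the cryptochromes, Per1 and Per2, the receptor gene, and its targets Fkbp5, Tsc22d3 and Sgk1, the 6 smallest p in each direction of the treatment difference, and the 5 genes most like Per2. Further genes are list members named for their function after their values were seen. The members and lists were chosen with earlier results of these data known.

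Replicate numbers were taken from the labels. Same-numbered Dex arrays of the genotypes had residual correlations of -0.05, 0.04 and 0.15, so the numbers were not taken to pair the cultures. Alternatives changed the background correction, offset, normalization, detection filter, probe choice, variance model, array weights, arrays in the fit, replicate block and each array in turn.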

Additional observations from a re-analysis of the deposited data

Results flagged for a closer look

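The genotype difference differed between Dex and EtOH for 215 genes in the test of the difference itself, and the named genes among them follow, as log2 values of the difference under Dex minus that under EtOH. Above 0 were Aldh3a1 (1.89), Bmper (1.37), Dbp (1.70), Defb1 (2.57), Emcn (0.77), Gsta3 (2.14), Id4 (1.04), Igfbp4 (0.75), Igfbp5 (0.77), Nr1d1 (1.79), Nr1d2 (1.35), Oasl2 (1.33), Ramp2 (2.59), Rnase2a (1.44), Rpp25 (1.88), Tef (0.92) and Wnt4 (1.39). Below 0 were Anxa8 (-2.32), Arg1 (-1.10), Igfbp6 (-1.24), Jaml (-2.80), Jun (-0.73), Lbp (-1.83), Lcn2 (-1.67), Mmp12 (-0.86), Myc (-1.35), Rab15 (-1.48), Sesn2 (-1.13), Spink8 (-2.21), Srebf2 (-0.59), Stard10 (-1.38) and Tinagl1 (-1.56). Among these, Lcn2, Spink8 and Jaml were at background in both genotypes under EtOH, and Arg1, Defb1, Lbp, Myc, Rnase2a, Rpp25 and Aldh3a1 were at background on all arrays of at least 1 EtOH group, so that part of their value rests on signals near the floor.

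The calls differed in how well they stood up to other settings. Anxa8, Dbp, Defb1, Gsta3, Igfbp6, Jaml, Lcn2, Nr1d2, Rab15, Ramp2, Rnase2a, Rpp25, Spink8, Stard10 and Tinagl1 remained called in every alternative that gives this test, and the others did not, as with Nr1d1, Aldh3a1, Igfbp4 and Wnt4.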

How the results depend on the processing

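Of 167 named genes called under Dex, 139 stayed past the threshold in all 27 alternatives, 28 lost the call in at least 1, and none changed direction. Of 46 named genes not called, 20 were called in at least 1. The genes lost most often were Stip1 (21 alternatives), Per1 and Sgk1 (18 each), Myh11 (16), Psmb10 (15), Gap43 (14) and Ncoa1 (13), and the cause was not tested. With the replicate block 1370 genes were called under Dex, 1357 of them called in the same direction without it, and the count for the difference between treatments was 42. The numbers share only a label, so the block was not used in the results above.

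Counts of genes at least 2-fold higher and lower were 82 and 43 without background correction and 83 and 43 from the deposited value table, and with an offset of 50 the lower count was 97. Each of these leaves or adds a larger constant to dim signals, which compresses folds by construction. Array weights raised the calls under Dex to 2917 (1385 higher and 1532 lower), under EtOH to 4041 and for the difference to 1838. The difference count was 708 with median scaling, 62 with no detection filter, 35 without number 3 of both Dex groups and 85 without the 3 arrays that stand apart. Without those 3 arrays 1284 genes were lower under Dex and 1375 were called under EtOH. Under median scaling the difference had a median of 0.04 over all genes, with 763 higher and 692 lower.

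Leaving out 1 array at a time gave 1137 to 1930 calls under Dex (569 to 952 higher, 568 to 978 lower), 194 to 217 genes at least 2-fold higher and 132 to 167 lower, 1399 to 3052 calls under EtOH and 32 to 1237 for the difference. Each of these settings leaves 1 group with 2 arrays. Signal near background limits folds of genes read on 1 side alone.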

Other observations

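The chromosomes of the tested genes were compared after their values had been seen. Of 340 tested genes on chromosome 15, 24.4% were higher in the knockout under Dex and 7.65% lower, against 10.3% and 10.4% of all genes, and their median difference was 0.17 under Dex and 0.11 under EtOH, against 0.01 and -0.05 over all genes. The median deviation of these genes from the control mean was 0.16, 0.16 and 0.15 on the knockout Dex arrays and 0.03, 0.02 and -0.04 on the control Dex arrays, with no overlap. Slc1a3, Aqp5, Osr2, Tef, Rspo2, Col2a1 and Sp7, described above, are among the 83 of these genes that were higher. The names are of higher genes only, and 26 of the 340 were lower. The 592 tested genes on chromosome 7 had a median of 0.11 under Dex and -0.02 under EtOH. No other test of these values was made.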
